A study of Mus musculus with 12 samples.

Results

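Marrow cells from mice given R-2-hydroxyglutarate (R-2HG) were compared with marrow cells carrying wild-type isocitrate dehydrogenase 1 (IDH1wt). The comparison used 6 of the 12 arrays of the study, the 3 titled as R-2HG replicates and the 3 titled as IDH1wt replicates, and covered 15858 genes. Biotin-labelled total RNA was measured on Affymetrix mouse arrays. All 4 groups of the study started from C57BL/6 bone marrow immortalised with HoxA9, were transduced with a retrovirus, and were transplanted into irradiated recipients of the same strain. The R-2HG group carried the empty vector, and its recipients were given 1 mg of R-2HG daily over 4 weeks. The IDH1wt group carried pSF91-IDH1wt-IRES-EGFP and no treatment is named for it. GFP-positive marrow cells were sorted 4 weeks after transplantation. The remaining groups carried the empty vector without treatment, or mutant IDH1 (IDH1mut). R-2HG and IDH1wt therefore differed both in the treatment and in the construct, and these cannot be told apart in this contrast. The description of the R-2HG arrays mentions the IDH1mut vector. Their titles, sources and construct entries give the empty vector, which was followed. Whether replicates came from separate mice is not stated, so p-values reflect the spread among these arrays alone, and that spread may be technical.

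IDH1 converts isocitrate to 2-oxoglutarate in the cytosol. Cancer-associated mutants of IDH1 reduce 2-oxoglutarate to R-2HG, a metabolite that competes with 2-oxoglutarate at dioxygenases such as the TET enzymes, which oxidise 5-methylcytosine, and the histone demethylases with a Jumonji domain. Overexpressed HoxA9 keeps myeloid progenitors dividing, and such cells can mature along the neutrophil path, on which primary granule genes are expressed before secondary granule genes and ribosome production declines.

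Each probe set's log2 values were centred on 0, so that only differences between arrays can be read, and a difference of 1 is a fold change of 2. For the same reason the levels of defining markers could not be used to check the sorted cell population. A gene was called when the adjusted p of the limma fit was under 0.05, and errors are SEs with 3 arrays per group. R-2HG replicate 3 stood apart from R-2HG replicates 1 and 2. The SD over genes of the difference from the mean IDH1wt array was 0.495 and 0.509 for R-2HG replicates 1 and 2 and 0.331 for R-2HG replicate 3, whereas each IDH1wt array differed from the mean of the other two with an SD between 0.16 and 0.218. List counts are therefore given beside a fit in which R-2HG replicate 3 was the only R-2HG array, and beside a fit without it where that moved the count by over 1.5 times. With R-2HG replicate 3 as the only array, the lone array was assumed to vary like the other groups.

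R-2HG differed from IDH1wt in 7035 of 15858 genes (44.4%), 3391 higher (21.4%) and 3644 lower (23%). Large differences were mostly decreases. Of the called genes, 54 were at least 2-fold higher and 294 at least 2-fold lower in R-2HG. The 3 R-2HG arrays lay wholly above the 3 IDH1wt arrays in 26.4% of genes and wholly below in 27%. List counts below are to be read beside the shares of all genes given in this paragraph for the same fit. Without R-2HG replicate 3 the calls numbered 7508, and with it as the only R-2HG array 1610 (10.2%), 584 higher (3.68%) and 1026 lower (6.47%). In the latter fit 1546 genes of the 7035 were called in the same direction. Over the full fit and 14 other settings, 491 genes were called higher and 981 lower in every one.

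**Figure D1:**
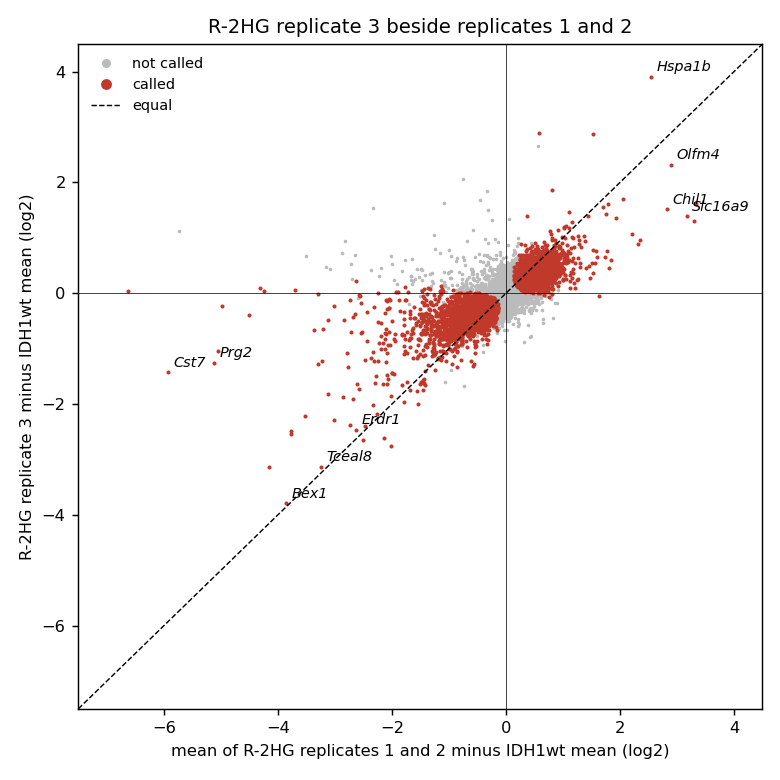
Each point is 1 of the 15858 genes, with the mean of R-2HG replicates 1 and 2 minus the IDH1wt mean on the x axis and R-2HG replicate 3 minus the IDH1wt mean on the y axis, both in log2 units. Red genes were called, and the dashed line marks equal differences. Bex1, Erdr1 and Olfm4 lie near the line, whereas Cst7 and Prg2 lie far above it, with most of their decrease on replicates 1 and 2.

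The empty vector and IDH1mut arrays entered neither side of the comparison and show where the groups lay. For the 294 genes at least 2-fold lower in R-2HG, the mean of the untreated empty vector arrays was nearer to IDH1wt in 257 and nearer to R-2HG in 37. For the 54 genes at least 2-fold higher, it was nearer to IDH1wt in 38 and nearer to R-2HG in 16. For most of the large differences the R-2HG arrays were thus the ones away from the untreated empty vector arrays, and for 37 and 16 genes the IDH1wt arrays were. The IDH1mut mean was nearer to R-2HG in 30 of the 54 (55.6%) and in 83 of the 294 (28.2%). Between IDH1wt and empty vector 214 genes were called (1.35%), a count that was 89 without empty vector replicate 2, 84 without empty vector replicate 3, 123 without IDH1wt replicate 2 and 86 without IDH1wt replicate 3.

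Genes that build ribosomes and supply cell growth were lower in R-2HG. Of 54 measured members of the MYC and ribosome biogenesis list, 44 were lower and 1 higher (81.5% lower, against 23% of all genes), with a median log2 fold change of -0.56 beside 0.02 over all genes. Myc, the transcription factor that drives growth genes, was at 0.28, 0.37 and 0.23 on the IDH1wt arrays and at -0.98, -0.91 and -0.42 on the R-2HG arrays. The groups did not overlap, and Myc fell by 1.06 ± 0.13 (adjusted p = 0.000165). Nhp2, a protein of the H/ACA particles that pseudouridylate ribosomal RNA, fell by 0.87 ± 0.10 (adjusted p = 0.000146). Nob1, the endonuclease that finishes the 3' end of 18S ribosomal RNA, fell by 0.69 ± 0.08 (adjusted p = 0.000162). The member that rose was Max, the partner of MYC (0.21 ± 0.06, adjusted p = 0.0218), and 0 members were called higher without IDH1wt replicate 1, IDH1wt replicate 3, R-2HG replicate 1 or R-2HG replicate 2. With R-2HG replicate 3 as the only array 19 members were lower and 0 higher, with a median of -0.33.

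Promoter sequences bear on this list because MYC with its partner MAX binds the E-box CACGTG, which reads the same on both strands. RefSeq promoters of build GRCm38.p6 were matched for 12658 of the 15858 genes. Rrn3, which brings RNA polymerase I to ribosomal RNA genes, had a smaller p than any other called member with an E-box in the 250 bases before its start, and Utp18, a component of the small subunit processome, followed. Rrn3 lies on the plus strand at chr16:13780449-13780698 and Utp18 on the minus strand at chr11:93885767-93886016. Both are shown 5' to 3', with capitals marking CACGTG.
Rrn3: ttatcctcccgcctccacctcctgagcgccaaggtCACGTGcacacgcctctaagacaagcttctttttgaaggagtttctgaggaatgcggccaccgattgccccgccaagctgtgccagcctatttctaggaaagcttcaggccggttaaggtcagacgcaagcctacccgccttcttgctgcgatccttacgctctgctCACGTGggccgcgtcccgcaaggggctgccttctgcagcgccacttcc
Utp18: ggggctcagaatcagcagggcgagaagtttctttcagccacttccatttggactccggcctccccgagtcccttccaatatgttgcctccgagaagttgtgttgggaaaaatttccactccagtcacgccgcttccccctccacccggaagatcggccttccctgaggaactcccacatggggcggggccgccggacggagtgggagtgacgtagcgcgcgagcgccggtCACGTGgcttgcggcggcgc
Rrn3 was at 0.27, 0.31 and 0.22 in IDH1wt and at -0.76, -0.54 and -0.29 in R-2HG, and fell by 0.80 ± 0.10 (adjusted p = 0.000189). Utp18 was at 0.21, 0.22 and 0.09 in IDH1wt and at -0.45, -0.39 and -0.10 in R-2HG, and fell by 0.49 ± 0.09 (adjusted p = 0.00139). In windows from 250 bases before to 50 after the start, CACGTG was found in 20% of 40 windows of list members called lower. Over the whole list it was in 21.8% of 55 windows, and the 1 window of the member called higher also held it. The share was thus not particular to members called lower. CACGTG was in 9.04% of all 15979 windows, 11.3% of those of all genes called lower and 7.06% of those of all genes called higher. In the 250 bases before the start alone, the share was 7.5% for the list members called lower and 7.67% for all windows, so the higher share rested on the 50 bases after the start. A match describes letters in these windows and shows no binding.

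Genes of serine, one-carbon and nucleotide synthesis had a similar shift, with 84.4% of members called lower, against 23% of all genes. Of 32 measured, 27 were lower and 0 higher, with a median of -0.57 (15 lower and 0 higher with R-2HG replicate 3 as the only array). Phgdh, the enzyme of the committed step from glycolysis into serine, was at 0.61, 0.40 and 0.59 in IDH1wt and at -0.63, -0.66 and -0.33 in R-2HG, and fell by 1.07 ± 0.10 (adjusted p = 6.25e-05). The next enzyme of that path, Psat1, fell by 1.23 ± 0.16 (adjusted p = 0.000249). Gcsh, the lipoyl carrier of the glycine cleavage system, fell by 1.17 ± 0.13 (adjusted p = 0.00011). Ahcy, which hydrolyses S-adenosylhomocysteine, fell by 0.91 ± 0.10 (adjusted p = 0.000134). In each of these genes all 3 R-2HG arrays lay below all 3 IDH1wt arrays.

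The translation machinery was lower as well. Of 35 aminoacyl-tRNA synthetase genes 26 were lower and 0 higher, of 40 translation factors 26 were lower and 2 higher, and of 34 cytosolic ribosomal protein genes 19 were lower and 0 higher. The shares called lower were 74.3%, 65% and 55.9%, against 23% of all genes, and the medians were -0.46, -0.32 and -0.19. Iars and Tars, which charge tRNAs with isoleucine and threonine in the cytosol, fell by 0.77 ± 0.10 and fell by 0.75 ± 0.09 (adjusted p = 0.000191 and 0.000142). Among the translation factors Eif4a2, a paralog of the RNA helicase Eif4a1, moved the other way. It was at -0.32, -0.40 and -0.29 in IDH1wt and at 0.22, 0.15 and 0.30 in R-2HG, a rise of 0.56 ± 0.07 (adjusted p = 0.000146). Eif1a, which takes part in start codon scanning, fell by 0.92 ± 0.10 (adjusted p = 0.000105). With R-2HG replicate 3 as the only array, 7 synthetases, 5 translation factors and 4 ribosomal proteins were called lower. Of the ribosomal proteins 10 were called lower after genes of low SD were left out. The 2 translation factors that rose were 1 without IDH1wt replicate 3, 1 without R-2HG replicate 1 and 1 without R-2HG replicate 2.

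**Figure D2:**
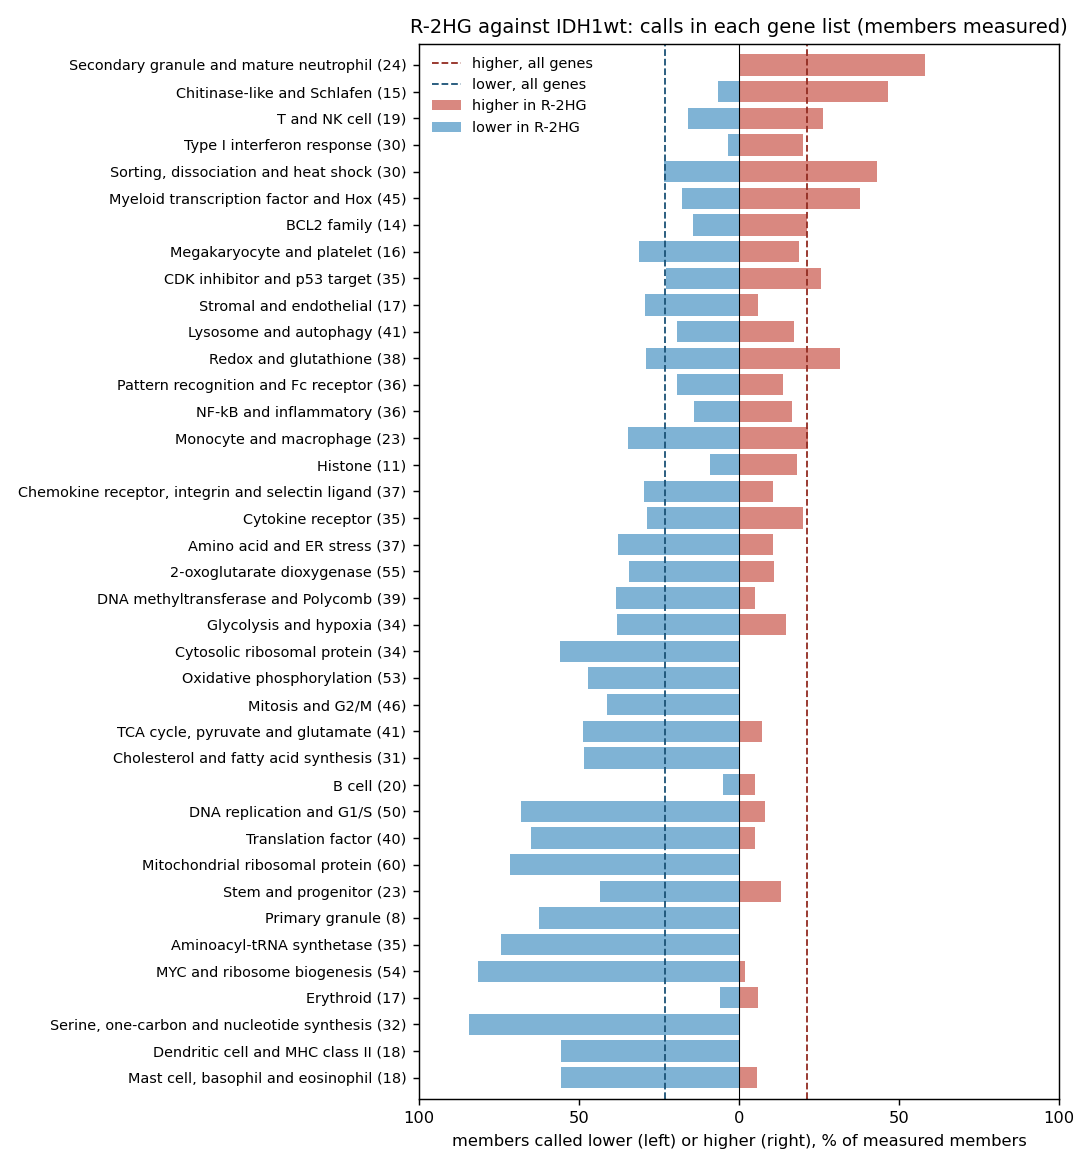
For each gene list drawn, without the sex-linked genes and the set tied to IDH1 and HoxA9, bars give the percent of measured members called higher (right) or lower (left) in R-2HG than in IDH1wt, with the number measured in brackets. Dashed lines give the same percent over all genes, 21.4% higher and 23% lower, and the growth and translation lists reach furthest below while the secondary granule list reaches furthest above.

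Mitochondrial genes followed the same direction, to differing extents. Of 60 mitochondrial ribosomal protein genes 43 were lower and 0 higher (71.7% lower, against 23% of all genes), with a median of -0.37. Mrps30, a subunit of the mitochondrial ribosome, was at 0.30, 0.20 and 0.27 in IDH1wt and at -0.45, -0.41 and -0.47 in R-2HG, so R-2HG replicate 3 did not stand apart for it, and the gene fell by 0.70 ± 0.06 (adjusted p = 3.38e-05). Of 53 oxidative phosphorylation genes 25 were lower and 0 higher (47.2% lower, against 23% of all genes), with a median of -0.20. Ndufa5 of complex I fell by 0.66 ± 0.09, Sdhc of complex II fell by 0.48 ± 0.07 and Atp5a1 of the ATP synthase fell by 0.54 ± 0.08 (adjusted p = 0.000272, 0.000444 and 0.000353). The 2 probe sets of Sdhc were at -1.01 and 0.04, and 1 was called. Of 41 genes of the TCA cycle and of pyruvate and glutamate metabolism, 20 were lower and 3 higher. These were 48.8% and 7.32%, against 23% and 21.4% of all genes. Suclg2, a subunit of succinyl-CoA ligase, was at 0.45, 0.18 and 0.46 in IDH1wt and at -0.99, -0.82 and -0.55 in R-2HG, and fell by 1.15 ± 0.11 (adjusted p = 7.25e-05). Pdha1 of pyruvate dehydrogenase fell by 0.63 ± 0.09, and Pdk1, the kinase that restrains that enzyme, fell by 0.78 ± 0.10 (adjusted p = 0.000462 and 0.000199). The 3 that rose were the malic enzymes Me1 and Me3 and Adhfe1, the transhydrogenase that makes 2-hydroxyglutarate from 2-oxoglutarate. That count was 1 without IDH1wt replicate 1, 1 without IDH1wt replicate 2, 1 without R-2HG replicate 1 and 0 without R-2HG replicate 2. With R-2HG replicate 3 as the only array, 13 mitochondrial ribosomal protein genes, 6 oxidative phosphorylation genes and 9 genes of the TCA list were lower and 0 of each were higher.

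Isocitrate dehydrogenases and the 2HG enzymes were read individually. Idh1, the gene of the construct, was at 0.01, -0.19 and -0.05 in IDH1wt and at 0.32, 0.34 and -0.03 in R-2HG (log2 fold change 0.28 ± 0.11, adjusted p = 0.0599). It was thus not higher in the cells that carried the construct, and it is not known whether these probe sets read the introduced sequence, so it does not check the labels. Without R-2HG replicate 3 Idh1 was called higher in R-2HG (adjusted p = 0.00763). Idh2, the mitochondrial NADP-dependent enzyme, was at 0.38, 0.20 and 0.24 in IDH1wt and at -0.49, -0.49 and -0.25 in R-2HG, and fell by 0.68 ± 0.09 (adjusted p = 0.000223). D2hgdh, which oxidises R-2HG back to 2-oxoglutarate, was lower by a small margin (-0.25 ± 0.09, adjusted p = 0.0488), and Adhfe1 was higher by one (0.30 ± 0.10, adjusted p = 0.036). Read singly, 1 of the 2 probe sets of D2hgdh and 0 of the 3 of Adhfe1 were called. Leaving out any one of IDH1wt replicates 1, 2 and 3 or R-2HG replicates 1 and 2 ended the calls of both D2hgdh and Adhfe1, and with R-2HG replicate 3 as the only array they were at -0.14 and 0.08 (adjusted p = 0.544 and 0.733). Idh3a, a subunit of the NAD-dependent enzyme, was not called (-0.19 ± 0.09, adjusted p = 0.123), and its 4 probe sets ranged from -0.65 to 0.96, with 1 of them called in the opposite direction from the other 3. As3mt, an arsenic methyltransferase of the same set, was at 1.52, 1.30 and 1.65 in IDH1wt and at -1.02, -1.38 and -0.41 in R-2HG, and fell by 2.42 ± 0.25 (adjusted p = 8.46e-05).

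Enzymes that R-2HG can inhibit, and the DNA methylation machinery, were measured as transcripts only. Of 55 dioxygenases that use 2-oxoglutarate, 19 were lower and 6 higher, with a median of -0.11, and with R-2HG replicate 3 as the only array 3 were lower and 0 higher. In the full fit 34.5% of these dioxygenases were lower and 10.9% higher, against 23% and 21.4% of all genes. P4ha1, a collagen prolyl hydroxylase, was at 0.29, 0.21 and 0.23 in IDH1wt and at -0.96, -0.97 and -0.51 in R-2HG, and fell by 1.06 ± 0.11 (adjusted p = 8.12e-05). Tet1 fell by 0.67 ± 0.11 (adjusted p = 0.000776), a call that was lost with R-2HG replicate 3 as the only array (-0.51, adjusted p = 0.054), while Tet2 stood at -0.04 ± 0.10 (adjusted p = 0.727). The 4 probe sets of Tet1 disagreed in size, at -1.99, -0.81, -0.02 and 0.13, and 2 of them were called. The count of higher dioxygenases was 2 without IDH1wt replicate 3, 2 without R-2HG replicate 1 and 1 without R-2HG replicate 2. Of 39 DNA methyltransferase and Polycomb genes 15 were lower and 2 higher, with 4 higher without R-2HG replicate 3, and 3 lower and 2 higher with it as the only array. In the full fit 38.5% of this list were lower and 5.13% higher, against 23% and 21.4% of all genes. Dnmt3a, which methylates unmodified DNA, was at 0.23, 0.34 and 0.26 in IDH1wt and at -0.42, -0.64 and -0.31 in R-2HG, and fell by 0.74 ± 0.09 (adjusted p = 0.000206), and all 5 of its probe sets were called lower. Its relative Dnmt3b was at 0.07, 0.31 and 0.13 in IDH1wt and at -0.41, -0.48 and -0.44 in R-2HG, and fell by 0.61 ± 0.09 (adjusted p = 0.000532). Uhrf1, which brings the maintenance methyltransferase to replicated DNA, fell by 0.60 ± 0.08 (adjusted p = 0.000337). Phf1, a Polycomb-like protein, rose by 0.68 ± 0.09 (adjusted p = 0.000291).

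Cell cycle genes were lower, with 68% of the replication and G1/S list and 41.3% of the mitosis and G2/M list called lower. Of all genes 23% were called lower. The medians of these lists were -0.31 and -0.23. Of 50 genes of DNA replication and G1/S, 34 were lower and 4 higher, with a median of -0.31 (11 lower and 0 higher with R-2HG replicate 3 as the only array). Cdk4, the G1 cyclin-dependent kinase, was at 0.53, 0.27 and 0.28 in IDH1wt and at -0.80, -0.78 and -0.36 in R-2HG, and fell by 1.01 ± 0.11 (adjusted p = 0.00012). Fen1, the flap endonuclease of lagging strand synthesis, fell by 0.69 ± 0.08 (adjusted p = 0.000174). The 4 that rose in this list were 1 without IDH1wt replicate 1, 2 without IDH1wt replicate 3, 0 without R-2HG replicate 1 and 2 without R-2HG replicate 2. Of 46 genes of mitosis and G2/M, 19 were lower and 0 higher, a count that was 5 without IDH1wt replicate 2, 8 without IDH1wt replicate 3, 5 without R-2HG replicate 1, 6 without R-2HG replicate 2 and 0 with R-2HG replicate 3 as the only array. Mad2l1, a spindle checkpoint protein, fell by 0.44 ± 0.08 (adjusted p = 0.00131), and was at -0.39 with R-2HG replicate 3 as the only array, where it was not called (adjusted p = 0.0628). Of the cell cycle inhibitors, Cdkn1a and Cdkn2b were not called (0.15 ± 0.10 and -0.24 ± 0.13, adjusted p = 0.239 and 0.161), although Cdkn2b passed without R-2HG replicate 3 (adjusted p = 0.0299). Cdkn2a was lower (-0.64 ± 0.21, adjusted p = 0.0253), but not without IDH1wt replicate 1, R-2HG replicate 1 or R-2HG replicate 2, and it was at -0.37 with R-2HG replicate 3 as the only array (adjusted p = 0.435).

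Part of the lipid synthesis list was lower, 48.4% of members against 23% of all genes. Of 31 genes of cholesterol and fatty acid synthesis 15 were lower and 0 higher, with a median of -0.28 (6 lower with R-2HG replicate 3 as the only array), and 2 were higher when each gene was read by its most variable probe set. Sqle, the squalene epoxidase, was at 0.35, 0.51 and 0.28 in IDH1wt and at -1.39, -1.21 and -0.42 in R-2HG, and fell by 1.39 ± 0.19 (adjusted p = 0.000324). Dhcr7, of the last step to cholesterol, fell by 0.92 ± 0.10, and Insig1, which retains the sterol sensor in the endoplasmic reticulum, fell by 0.75 ± 0.08 (adjusted p = 0.000114 and 0.000103). Elovl6, a fatty acid elongase, fell by 1.04 ± 0.10 (adjusted p = 5.83e-05).

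**Figure D3:**
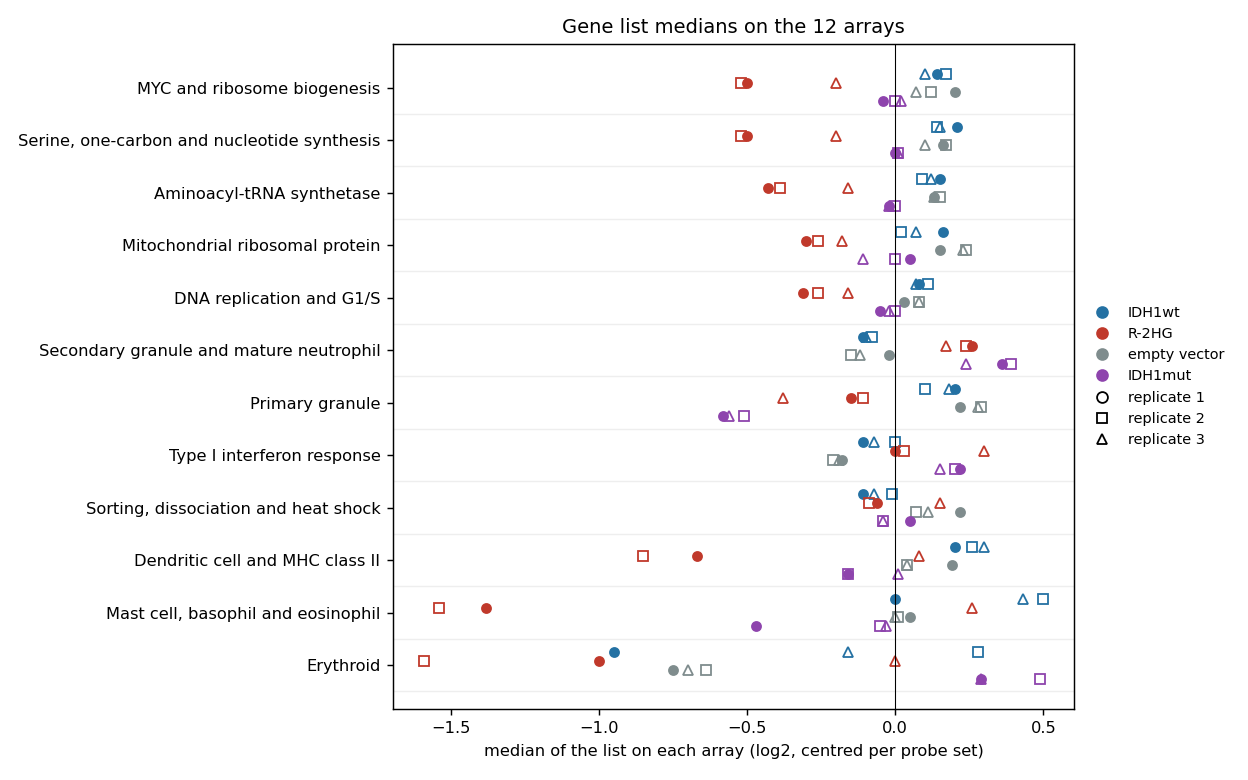
Median of 12 gene lists on each of the 12 arrays, in log2 units centred per probe set, coloured by group and with a marker shape per replicate. The 3 R-2HG arrays lie below every IDH1wt array in the 5 growth and replication lists at the top, whereas in the dendritic cell and mast cell lists only replicates 1 and 2 lie far to the left.

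Genes of neutrophil maturation were higher in R-2HG. In the list of secondary granules and mature neutrophils 14 of 24 genes were higher and 0 lower (58.3% higher, against 21.4% of all genes), with a median of 0.39. The list median ran from -0.11 to -0.08 on the IDH1wt arrays and from 0.17 to 0.26 on the R-2HG arrays. Padi4, which citrullinates histones in neutrophils, was at -0.45, -0.57 and -0.50 in IDH1wt and at 0.69, 0.67 and 0.32 in R-2HG, a rise of 1.06 ± 0.10 (adjusted p = 4.58e-05). Itgam, the alpha chain of the integrin Mac-1, was at -0.20, -0.16 and -0.36 in IDH1wt and at 0.52, 0.51 and 0.32 in R-2HG, a rise of 0.69 ± 0.08 (adjusted p = 0.000129). Cd177, a neutrophil surface glycoprotein, rose by 0.66 ± 0.10, and Chil3, a chitinase-like protein, by 0.55 ± 0.08 (adjusted p = 0.000411 and 0.000455). Stfa3, a stefin of the same list, was at 3.05, 3.51 and 3.31 in IDH1wt, at -2.47 and -2.42 on R-2HG replicates 1 and 2 and at 4.41 on R-2HG replicate 3, and was not called (-3.45 ± 1.33, adjusted p = 0.053). Without R-2HG replicate 3, 14 members were higher and 1 lower, and with it as the only array 8 were higher and 0 lower. Because these are bulk samples, more cells of a type and more RNA per cell cannot be told apart.

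Part of the primary granule list, of the earlier stage, went the other way, with 62.5% of members called lower, against 23% of all genes. Of 8 measured 5 were lower and 0 higher, with a median of -0.40, and with R-2HG replicate 3 as the only array the count was the same and the median -0.52. Nkg7, a granule membrane protein, was at 0.57, 0.25 and 0.36 in IDH1wt and at -0.37, -0.38 and -0.52 in R-2HG, and fell by 0.82 ± 0.09 (adjusted p = 0.000136). Ctsg, the cathepsin G of azurophil granules, was at 0.38, 0.06 and 0.21 in IDH1wt and at -0.30, -0.28 and -0.36 in R-2HG, and fell by 0.53 ± 0.09 (adjusted p = 0.000826). Ms4a3, a marker of granulocyte and monocyte progenitors, fell by 0.52 ± 0.12 (adjusted p = 0.00448), and was at -0.57 with R-2HG replicate 3 as the only array (adjusted p = 0.067). For these 3 genes R-2HG replicate 3 was the lowest of the R-2HG arrays. Calr, which is also counted in the list of amino acid and endoplasmic reticulum stress, was among the 5 and fell by 0.49 ± 0.07 (adjusted p = 0.000397). Nkg7 is also counted in the list of T and NK cells. The remaining members measured were Mpo, Elane, Prtn3 and Serpinb1a, and most of these were not called. Of 23 stem and progenitor genes 10 were lower and 3 higher (43.5% and 13%, against 23% and 21.4% of all genes). The count of 3 higher was 1 without any one of IDH1wt replicates 2 and 3 and R-2HG replicates 1 and 2. With R-2HG replicate 3 as the only array 3 were lower and 0 higher, and the list median was -0.09 in place of -0.39. Cd34, a progenitor surface marker, was at 0.40, 0.04 and 0.30 in IDH1wt and at -1.05, -1 and -0.64 in R-2HG, and fell by 1.15 ± 0.13 (adjusted p = 0.000129), and fell by 0.89 with R-2HG replicate 3 as the only array (adjusted p = 0.012). Il3ra, a receptor chain for interleukin 3, was at 0.37, 0.39 and 0.41 in IDH1wt and at -0.53, -0.51 and -0.62 in R-2HG, and fell by 0.94 ± 0.12 (adjusted p = 0.000217).

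Chitinase-like and Schlafen genes included Chil1 and Slfn4, which were among the 15 largest increases. Called higher were 46.7% of the members, against 21.4% of all genes. Of 15 measured 7 were higher and 1 lower, with a median of 0.26 (4 higher and 0 lower with R-2HG replicate 3 as the only array, and 9 higher and 2 lower without it). Chil1, a chitinase-like glycoprotein, was at 0, -0.03 and 0.02 in IDH1wt and at 2.78, 2.85 and 1.51 in R-2HG, a rise of 2.38 ± 0.26 (adjusted p = 0.000119). With a trend of the spread over mean values its adjusted p was 0.192. Values were centred per probe set, so a gene's mean over arrays is not its expression level, and this fit cannot judge the call. The same holds for the trend values of Bex1 and Erdr1 below. Slfn4, a Schlafen gene of myeloid cells, was at -0.93, -1.05 and -0.97 in IDH1wt and at 0.78, 0.75 and 0.45 in R-2HG, a rise of 1.64 ± 0.15 (adjusted p = 4.99e-05). Outside that list, Olfm4, an olfactomedin of a neutrophil subset, was at -0.61, 0 and -0.27 in IDH1wt and at 2.63, 2.56 and 2.03 in R-2HG. It rose by 2.70 ± 0.18 (adjusted p = 6.74e-06), and by 2.32 with R-2HG replicate 3 as the only array (adjusted p = 0.00082).

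Interferon response genes were called higher about as often as all genes, but lower less often (3.33%, against 23%). In 14 of them the R-2HG arrays lay wholly above the IDH1wt arrays and in 2 wholly below, against 26.4% and 27% of all genes. The median over all genes was 0.02. Of 30 measured 6 were higher (20%, against 21.4% of all genes) and 1 was lower, with a median of 0.19, and with R-2HG replicate 3 as the only array 11 were higher (against 3.68% of all genes) and 1 lower, with a median of 0.43. Without R-2HG replicate 3, 5 were lower. The list median was 0 and 0.03 on R-2HG replicates 1 and 2, 0.30 on R-2HG replicate 3, and from -0.11 to 0 on the IDH1wt arrays. Oas1a, a sensor of double-stranded RNA, was tight within groups, at -0.29, -0.31 and -0.29 in IDH1wt and at 0.16, 0.24 and 0.22 in R-2HG, a rise of 0.50 ± 0.07 (adjusted p = 0.000306). Oas2, of the same family, was at -0.60, -0.30 and -0.35 in IDH1wt and at 0.15, 0.02 and 0.50 in R-2HG, a rise of 0.65 ± 0.14 (adjusted p = 0.00344). Gbp3, a guanylate-binding protein, was the member that fell, by 0.92 ± 0.14 (adjusted p = 0.000445). The 250 bases before the start of Oas1a, on the minus strand at chr5:120907526-120907775, are shown 5' to 3' because they hold 2 overlapping matches, in capitals, of the interferon response element searched, which is GAAA, any 2 bases and GAAA again, or the same with TTTC for the other strand.
Oas1a: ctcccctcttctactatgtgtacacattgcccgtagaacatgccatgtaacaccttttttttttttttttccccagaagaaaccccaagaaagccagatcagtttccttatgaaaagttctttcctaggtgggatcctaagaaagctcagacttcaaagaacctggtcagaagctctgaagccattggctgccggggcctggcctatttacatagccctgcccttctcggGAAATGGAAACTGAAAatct
That element was found in 53.8% of 26 windows of the list, from 250 bases before to 50 after the start, and in 3% of all windows. It was in 2 of the 4 windows of members called higher and in 1 of the 2 windows of Gbp3, the member called lower.

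Genes of mast cells, basophils and eosinophils were much lower on R-2HG replicates 1 and 2 than on R-2HG replicate 3. Of 18 mast cell, basophil and eosinophil genes 10 were lower and 1 higher, with a median of -1.31. These were 55.6% and 5.56%, against 23% and 21.4% of all genes. The median of that list was 0, 0.50 and 0.43 on the IDH1wt arrays, -1.38 and -1.54 on R-2HG replicates 1 and 2, and 0.26 on R-2HG replicate 3. Prg2, the major basic protein of eosinophils, was at 0.31, 1.45 and 1.17 in IDH1wt and at -4.12, -4.16 and -0.28 in R-2HG, and fell by 3.83 ± 0.79 (adjusted p = 0.00281). The call was lost with R-2HG replicate 3 as the only array (-1.26, adjusted p = 0.079). Epx, the eosinophil peroxidase, was at 0.07, 1.22 and 0.84 in IDH1wt and at -1.35, -1.40 and -0.77 in R-2HG, and fell by 1.89 ± 0.30 (adjusted p = 0.000603), and Siglecf, an eosinophil lectin, fell by 2.56 ± 0.41 (adjusted p = 0.000687). Both stayed called in that fit (adjusted p = 0.047 and 0.0095). Cpa3, the mast cell carboxypeptidase, was at -0.03, 0.56 and 0.16 in IDH1wt, at -6.33 and -6.48 on R-2HG replicates 1 and 2 and at 0.28 on R-2HG replicate 3. Cpa3 is outside the rule for named genes and was chosen after its values were seen, as were Stfa3 above and H2-Aa below. The count of 10 lower was 5 without R-2HG replicate 1, 5 without R-2HG replicate 2 and 3 with R-2HG replicate 3 as the only array.

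Dendritic cell and MHC class II genes had the same split, with 55.6% of members called lower, against 23% of all genes. Of 18 measured 10 were lower and 0 higher, and the count was 13 without R-2HG replicate 3, 4 without R-2HG replicate 1, 4 without R-2HG replicate 2 and 1 with R-2HG replicate 3 as the only array. The list median was from 0.20 to 0.30 on the IDH1wt arrays, -0.67 and -0.85 on R-2HG replicates 1 and 2, and 0.08 on R-2HG replicate 3. H2-Aa, an MHC class II chain, was at 0.20, 0.76 and 0.52 in IDH1wt and at -2.08, -2.05 and 0.44 in R-2HG (log2 fold change -1.73 ± 0.50, adjusted p = 0.0163). Cd209a, a dendritic cell lectin, was at 0.49, 0.10 and 0.31 in IDH1wt and at -2.94, -2.86 and -0.34 in R-2HG, and fell by 2.35 ± 0.51 (adjusted p = 0.00349). Of 17 erythroid genes 1 was lower and 1 higher, but 13 were lower without R-2HG replicate 3, 8 without IDH1wt replicate 1 and 0 with R-2HG replicate 3 as the only array. Of 23 monocyte and macrophage genes 8 were lower and 5 higher (21.7%, against 21.4% of all genes), the latter 3 without any one of IDH1wt replicates 1 and 3 and R-2HG replicates 1 and 2, and 0 and 0 were called with R-2HG replicate 3 as the only array. The part of these lineage genes in the differences of the other lists was not tested.

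Several of the largest single-gene decreases were shared out the same way. Cst7, which encodes the protease inhibitor cystatin F, was at 1.23, 0.85 and 0.96 in IDH1wt and at -4.77, -5.05 and -0.41 in R-2HG, and fell by 4.42 ± 0.87 (adjusted p = 0.00217). It fell by 1.43 with R-2HG replicate 3 as the only array (adjusted p = 0.0011). Cnn3, an actin-binding calponin, was at 1.05, 0.76 and 0.95 in IDH1wt and at -4.09, -4.16 and -0.13 in R-2HG, and fell by 3.71 ± 0.78 (adjusted p = 0.00301), and all 6 of its probe sets were called lower. The largest increases included Slc16a9, of the monocarboxylate transporter family, at -0.15, -0.19 and -0.22 in IDH1wt and at 3.02, 2.95 and 1.20 in R-2HG, a rise of 2.57 ± 0.36 (adjusted p = 0.00033). Prdm16, a transcriptional regulator of stem cells, was at -0.60, -0.03 and -0.19 in IDH1wt and at 2.03, 2.07 and 0.62 in R-2HG, a rise of 1.85 ± 0.31 (adjusted p = 0.000858). In these 4 genes R-2HG replicate 3 was nearest to IDH1wt and still lay outside its 3 arrays.

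For a further set of genes the IDH1wt arrays lay away from the untreated empty vector arrays and the R-2HG arrays lay close to the latter. Perp, a p53 target of desmosomes, was at 1.62, 2.12 and 1.92 in IDH1wt and at -0.72, -0.65 and 0.16 in R-2HG, and fell by 2.29 ± 0.20 (adjusted p = 3.83e-05), beside means of -0.27 in empty vector and -0.04 in IDH1mut. Pls3, an actin-bundling plastin, was at 2.80, 1.86 and 2.22 in IDH1wt and at -0.39, -0.49 and -0.09 in R-2HG, and fell by 2.61 ± 0.21 (adjusted p = 3.32e-05), beside means of 0.03 and 0.45. For Bex1 and Cela1 IDH1mut was high as well. Bex1, a brain-expressed X-linked gene, was at 4.10, 2.51 and 3.69 in IDH1wt and at -0.45, -0.39 and -0.36 in R-2HG, and fell by 3.83 ± 0.51 (adjusted p = 0.000278), beside means of -0.16 in empty vector and 3.26 in IDH1mut, with an adjusted p of 0.892 under the trend. Cela1, an elastase, fell by 3.82 ± 0.33 (adjusted p = 4.25e-05), beside means of -0.29 and 1.56.

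Some genes placed the R-2HG and empty vector arrays, which carry the same vector, away from both IDH1 constructs with little spread. The labels do not say whether all groups came from one pool of immortalised cells, so a difference in the origin of the cells and the construct cannot be told apart for these genes. Erdr1 was at 0.41, 0.56 and 0.48 in IDH1wt and at -2.31, -1.97 and -1.98 in R-2HG, and fell by 2.57 ± 0.16 (adjusted p = 5.24e-06), beside means of -1.79 in empty vector and 0.10 in IDH1mut, with an adjusted p of 0.229 under the trend. Wdfy1, a protein of endosomes, was at -0.77, -0.83 and -0.84 in IDH1wt and at 1.04, 0.91 and 0.80 in R-2HG, a rise of 1.73 ± 0.10 (adjusted p = 2.76e-06), beside means of 0.80 and -0.03. Nnt, the mitochondrial transhydrogenase that makes NADPH, was at -0.08, -0.16 and -0.05 in IDH1wt and at 0.52, 0.55 and 0.43 in R-2HG, a rise of 0.60 ± 0.10 (adjusted p = 0.000721), beside means of 0.56 and -0.11. The 3 probe sets of Nnt ranged from -0.40 to 1.35, and 1 was called in the opposite direction from the other 2. The Y-linked genes Uty and Kdm5d did not follow the pattern of Erdr1, Wdfy1 and Nnt. Both were higher in R-2HG than in IDH1wt, by 0.58 ± 0.12 and 0.48 ± 0.13 (adjusted p = 0.00314 and 0.0099). Xist, expressed from the inactive X chromosome, was at -0.06 ± 0.12 (adjusted p = 0.716). The means of Uty and Kdm5d were 0.32 and 0.27 in R-2HG, -0.04 and -0.06 in empty vector, and -0.19 and -0.03 in IDH1mut. With R-2HG replicate 3 as the only array they were at 0.60 and 0.29, and neither was called (adjusted p = 0.0601 and 0.296).

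**Figure D4:**
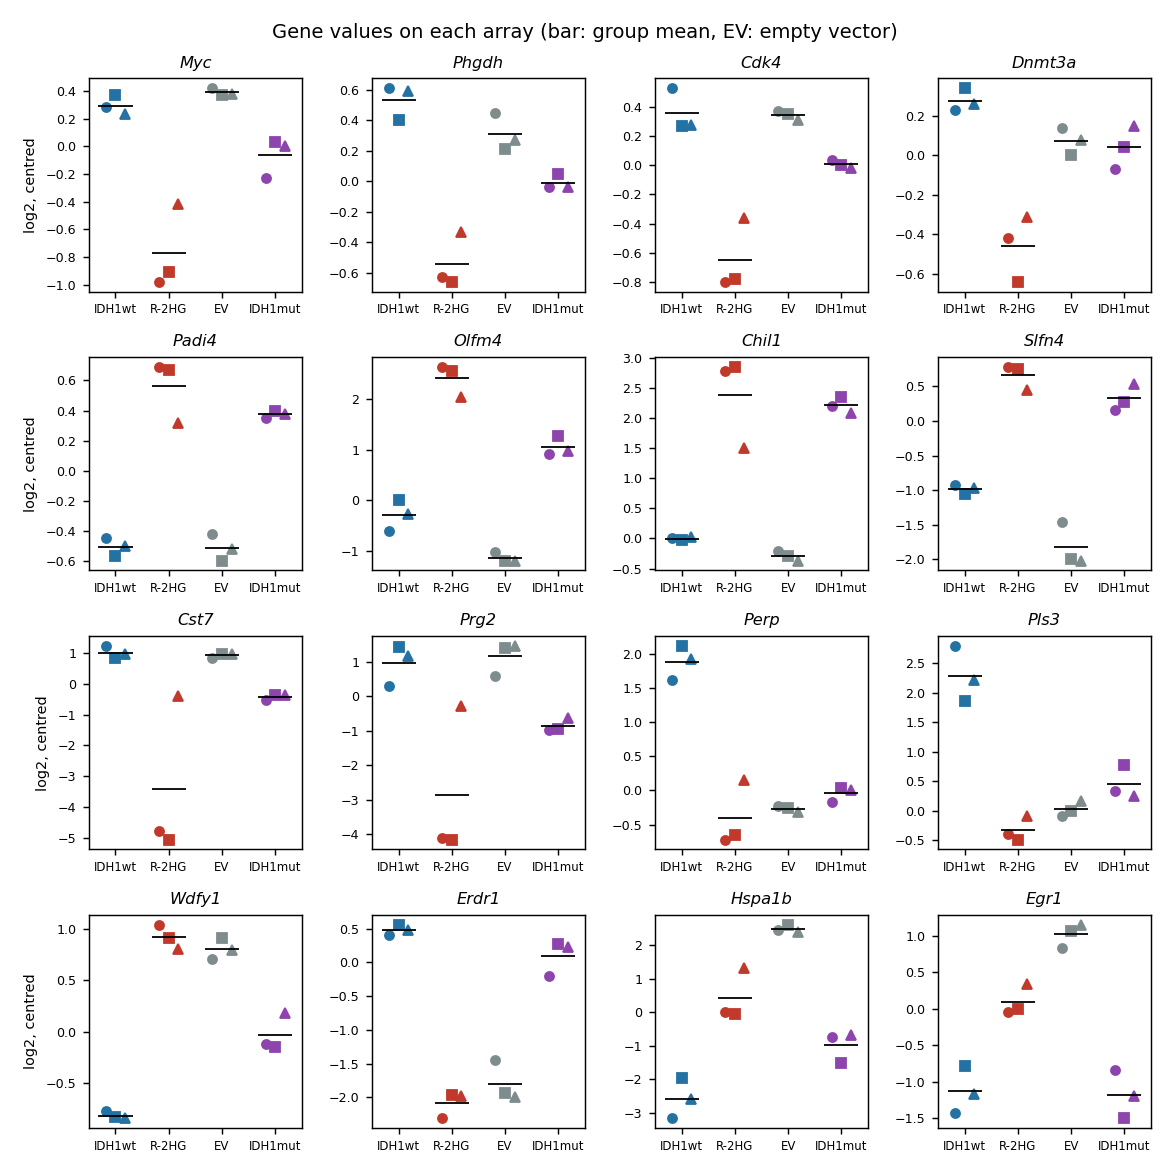
Values of 16 genes on the 12 arrays, in log2 units centred per probe set, with circles, squares and triangles for replicates 1, 2 and 3 and a bar at each group mean. In Myc, Phgdh, Cdk4 and Dnmt3a R-2HG is the low group, in Padi4, Olfm4, Chil1 and Slfn4 R-2HG and IDH1mut are high, in Perp and Pls3 IDH1wt stands apart, and in Hspa1b and Egr1 IDH1wt lies below R-2HG and both lie below empty vector.

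Heat shock and immediate early genes, which are known to respond to tissue dissociation, were called higher more often than all genes and lower about as often. IDH1wt was taken as the control here because it lacks the high level of these genes in the empty vector arrays, so their values and counts are a description. Of 30 measured 13 were higher in R-2HG than in IDH1wt (43.3%, against 21.4% of all genes) and 7 lower (23.3%, against 23%). The list median was 0.17. Hspa1b, an inducible Hsp70 chaperone, was at -3.17, -1.97 and -2.59 in IDH1wt and at 0, -0.06 and 1.33 in R-2HG. Egr1, an immediate early transcription factor, was at -1.42, -0.78 and -1.17 in IDH1wt and at -0.05, 0 and 0.34 in R-2HG. R-2HG replicate 3 was the highest R-2HG array for both. The untreated empty vector arrays were higher still, with means of 2.49 for Hspa1b and 1.02 for Egr1. IDH1wt was thus low for these genes relative to R-2HG, and their part in the other differences was not tested. The mitochondrial chaperones Hspd1 and Hspe1 and the cytosolic Hsph1 and Dnajb1 were among the 7 that fell. That count of 7 was 4 without IDH1wt replicate 2, 4 without R-2HG replicate 1, 3 without R-2HG replicate 2 and 11 without R-2HG replicate 3, and with R-2HG replicate 3 as the only array 9 were higher and 1 lower.

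Transcription factors of the myeloid lineage and the Hox genes were called higher in 37.8% of members, against 21.4% of all genes. They were called lower in 17.8%, against 23% of all genes. Of 45 measured 17 were higher and 8 lower, with 10 higher without R-2HG replicate 2 and 2 higher and 1 lower with R-2HG replicate 3 as the only array. Hoxb4, a homeobox gene of stem cells, was at 0, -0.21 and -0.02 in IDH1wt and at 0.83, 0.51 and 0.50 in R-2HG, a rise of 0.69 ± 0.09 (adjusted p = 0.000317), and Hoxa7 rose by 0.47 ± 0.09 (adjusted p = 0.0014), with 0.41 and an adjusted p of 0.0536 for R-2HG replicate 3 as the only array. Hoxa9, the gene that immortalised the cells, was at 0.36, 0.30 and 0.23 in IDH1wt and at 0.09, 0.05 and 0.09 in R-2HG (-0.22 ± 0.08, adjusted p = 0.0444). Its call was lost when any one of the 6 arrays was left out, and it is not known whether these probe sets read the introduced HoxA9. Meis1, its cofactor, was not called (0.20 ± 0.16, adjusted p = 0.322). Of 38 redox and glutathione genes 12 were higher and 11 lower, the latter 7 without IDH1wt replicate 2, 6 without R-2HG replicate 1 and 5 without R-2HG replicate 2. These shares, 31.6% and 28.9%, stand beside 21.4% and 23% of all genes, and with R-2HG replicate 3 as the only array 2 were higher and 1 lower. Ncf4, a subunit of the phagocyte NADPH oxidase, rose by 0.49 ± 0.06 (adjusted p = 0.000218).

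The contrast of IDH1mut with empty vector compares cells whose mutant enzyme makes R-2HG with cells that lack it, and shares no array with R-2HG against IDH1wt. Its groups differ in the construct and not in a treatment. In it 3579 genes were called (22.6%). Both contrasts called 1590 genes in the same direction, 528 higher and 1062 lower, which is 22.6% of the R-2HG calls and 44.4% of the IDH1mut calls. Opposite directions were found for 243 genes, 3.45% and 6.79% of those calls. Beside these same-direction shares, 10.5% of all genes were called higher and 12.1% lower in IDH1mut against empty vector. In R-2HG against IDH1wt 21.4% of all genes were called higher and 23% lower. The either-direction shares of all genes, 22.6% and 44.4%, count both directions and do not match the same-direction shares in kind. Over all genes the log2 fold changes had a Pearson r of 0.21 and a Spearman correlation of 0.25, as a description without a test. The calls of both contrasts rest on one estimate of the spread per gene. Hnmt, the histamine methyltransferase, fell by 2.69 ± 0.31 (adjusted p = 0.000137), and in IDH1mut against empty vector it fell by 1.98 (adjusted p = 0.00081). Chil1 rose by 2.38 and 2.5, Olfm4 by 2.70 and 2.18, and Padi4 by 1.06 and 0.89.

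The difference between these contrasts was itself called in 3992 genes (25.2%), 1935 with a higher and 2057 with a lower value in R-2HG against IDH1wt. That count was 2584 without empty vector replicate 3, 2492 without R-2HG replicate 1, 2289 without R-2HG replicate 2 and 666 with R-2HG replicate 3 as the only R-2HG array. In the MYC and ribosome biogenesis list 27 of 54 members had a lower value in R-2HG against IDH1wt and 1 a higher one. That list had a median of -0.56 there and of -0.16 in IDH1mut against empty vector. In the secondary granule list 7 of 24 had a lower value in R-2HG against IDH1wt and 1 a higher one, with medians of 0.39 and 0.53. Sall2, a zinc finger transcription factor, was at -0.13, -0.21 and 0.02 in IDH1wt and at -0.15, 0.01 and 0.01 in R-2HG (0.06 ± 0.16, adjusted p = 0.77), but 4.73 higher in IDH1mut than in empty vector (adjusted p = 3.3e-08).

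**Figure D5:**
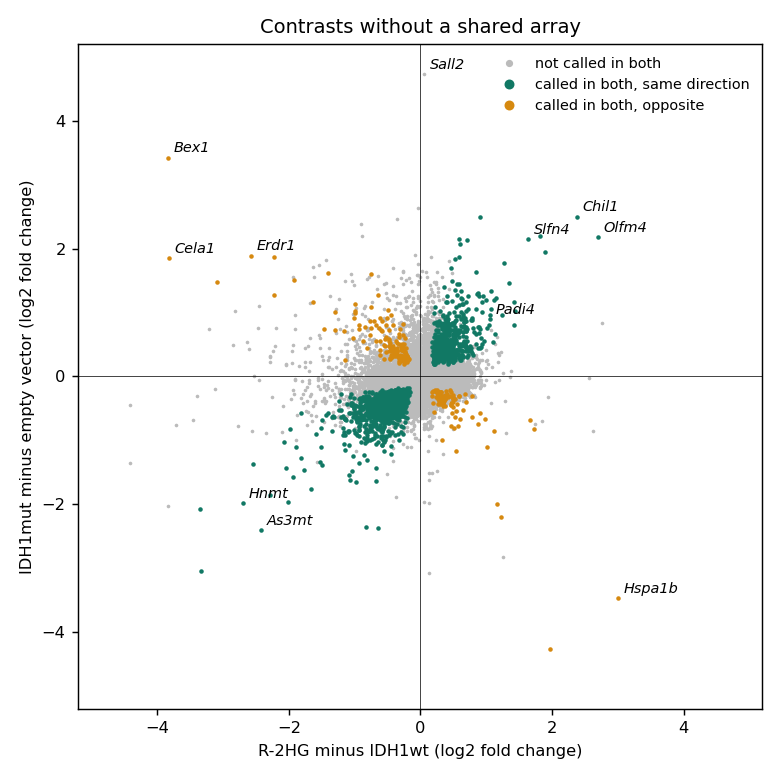
Log2 fold change of each gene in R-2HG against IDH1wt (x axis) and in IDH1mut against empty vector (y axis), contrasts that share no array. Green genes were called in both in the same direction (1590) and orange genes in opposite directions (243), with Chil1, Olfm4, Hnmt and As3mt among the former and Bex1, Erdr1 and Hspa1b among the latter.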

How the data were processed

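The authors deposited log2 values, with RMA named per the submitters' processing notes and no version stated there. The table is centred per probe set. Of 32533 probe sets, 28805 had 1 gene symbol in the platform annotation, 757 several and 2971 none, and a gene's value was the mean of the first kind (15858 genes, 8510 with 1 probe set).

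The fit on all 12 arrays used limma 3.58.1 (R 4.3.3; lmFit and eBayes without trend, 1 coefficient per group, 8 residual and 3.96 prior degrees of freedom), with two-sided p-values adjusted by Benjamini-Hochberg across the 15858 genes and called under 0.05. The fit was tested on simulated data. Members of 41 gene lists (1269 measured, 1201 genes counted once) gave 633 calls, 153 higher and 480 lower. The lists, the comparison and its members were chosen with earlier results of these data known, so lists are described by counts without a test. Named genes were the 15 largest changes in each direction among called genes with groups that did not overlap (clone, predicted and receptor names of olfaction left out), the 4 called members of each list with the smallest p, the set tied to IDH1 and HoxA9, and the 5 largest differences from IDH1mut against empty vector in each direction. Genes outside this rule are Max, Me1, Me3, Hspd1, Hspe1, Hsph1, Dnajb1, Utp18, Cpa3, H2-Aa, Stfa3 and Xist. Alternatives were a second quantile normalization, the probe set with the highest SD, leaving out genes under the 30th percentile of the SD, array weights, a trend, only 6 arrays, a replicate block, fold minimums of 1.5 and 2, each array left out, and R-2HG replicates 1 and 2 left out together. Promoters are RefSeq sequences. No scan date or batch was given.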

Additional observations from a re-analysis of the deposited data

Results flagged for a closer look

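The difference between R-2HG against IDH1wt and IDH1mut against empty vector was tested in the limma fit and called in 3992 genes, with the counts without single arrays given above. The genes with the largest differences follow, on the log2 scale. The value was higher in R-2HG against IDH1wt for Hspa1b (6.47), Hspa1a (6.24), Dsp (4.08), Pcp4l1 (3.49) and Egr1 (3.42). For Hspa1b, Hspa1a and Egr1 the empty vector mean was the highest of the 4 groups (2.49, 3.86 and 1.02) and the IDH1wt mean lay below 0. That high level in empty vector was the reason for using IDH1wt as the control, so these 3 values describe that choice. The difference was lower in R-2HG against IDH1wt for Bex1 (-7.25), Cela1 (-5.67), Sall2 (-4.67), Aldh1a7 (-4.57) and Erdr1 (-4.47). Sall2 was high only in IDH1mut (mean 4.55), whereas Bex1, Cela1, Aldh1a7 and Erdr1 were high in both IDH1 constructs. Dsp was not called in R-2HG against IDH1wt (1.25 ± 0.56, adjusted p = 0.085), and R-2HG replicate 3 (2.16) lay far above R-2HG replicates 1 and 2 (0.09 and 0.05).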

How the results depend on the processing

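The 7035 calls of R-2HG against IDH1wt ran from 4869 to 7508 with each array left out, were 1610 with R-2HG replicates 1 and 2 left out together, 1676 at a fold change of at least 1.5 and 348 at a fold change of at least 2, and ran from 6021 to 8893 over the other fits of all genes. The 633 list calls ran from 460 to 685 with each array left out and were 186 with R-2HG replicates 1 and 2 left out. With the latter, R-2HG against empty vector had 1824 calls in place of 6471 (4588 to 7018 with each array left out), and the difference from IDH1mut against empty vector had 666 in place of 3992, with 6460 under array weights (2289 to 5319 with each array left out, and not run on 6 arrays). IDH1mut against empty vector had 3579 calls (2427 to 3278 with each array left out). IDH1wt against empty vector had 214 calls, 521 after quantile normalization, 382 at the probe set with the highest SD, 1388 under array weights, and 84 to 214 with each array left out. The only named gene that reversed was Idh3a, at 0.96 when each gene was read by its most variable probe set. The share of windows with CACGTG in the 250 bases before the start was 7.5% for MYC list genes called lower, 9.14% for all genes called lower and 7.67% for all genes. The causes of these shifts were not tested.

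Replicate numbers did not pair the samples (correlations of same-numbered arrays from -0.15 to 0.12), and a replicate block gave 6767 calls in R-2HG against IDH1wt. It moved no count of calls over all genes by over 1.5 times. Of the named genes, it ended the calls of D2hgdh (adjusted p = 0.0613), Hoxa9 (0.061) and Sptb (0.0687). Of 183 named genes, 122 kept their side of the threshold with R-2HG replicate 3 as the only R-2HG array. The 3 arrays per group limit the precision, and centred values leave signal over background unknown.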
